A study of Mus musculus with 6 samples.

Results

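The genes described here encode 34 enzymes, carriers and electron acceptors of fatty acid beta-oxidation, chosen by gene symbol from the 52550 genes of the deposited count table. All 34 symbols were found, and all 34 passed the filter on low counts and were tested. By textbook location, 19 products act in mitochondria, 11 in peroxisomes, 3 in both or in a location that is not settled (Eci2, Amacr and Acad11), and 1 in the cytosol (Acot1). RNA came from the inguinal white fat (iWAT) of C57BL/6 mice, a subcutaneous depot. For 3 libraries (A2B1 1 to 3) the depot received adeno-associated virus (AAV) with the protein-coding part of mouse Hnrnpa2b1, which binds RNA. For the other 3 (control 1 to 3) it received the control virus, named AAV GFP and also called scrambled. The sources used here give no age, sex, dose, time after injection or viral promoter, and do not say that each library is a separate animal; the p-values therefore cover library-to-library spread, part of which may be technical.

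Beta-oxidation shortens acyl-CoA chains in rounds of dehydrogenation, hydration, a further dehydrogenation and thiolytic cleavage. In mitochondria the first step is done by chain-length-specific acyl-CoA dehydrogenases, which pass electrons through electron transfer flavoprotein to the respiratory chain. In peroxisomes it is done by acyl-CoA oxidases, which pass electrons to oxygen, and the substrates are mainly very-long-chain and branched fatty acids. Brown and beige fat burn fatty acids for heat by this route, while white fat mainly stores them.

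Library totals ran from 72961324 to 86663359 counts, of which the 34 genes took 0.724% to 0.910%. Hnrnpa2b1 itself had 763, 789 and 748 CPM (counts scaled to library size) in A2B1 libraries, against 555, 525 and 605 CPM in controls, without overlap and with an edgeR adjusted p of 0.0654. The tissue label was checked against marker genes. Adipocyte markers were abundant in every library (8 genes, summed level 41330 to 42570 CPM in A2B1 and 36620 to 40780 CPM in control libraries). In edgeR 1 of the 8, Cidec, fell. Plin1, Cfd, Retn and Pnpla2 were above all controls in each A2B1 library (15.1% of all genes). Adipoq and Cidec were below all controls (15.5% of all genes), and Fabp4 and Lpl overlapped. DESeq2 called Plin1, Cfd and Retn as higher (7.4% of all genes) and Adipoq and Cidec as lower (8.82%). Although the labels also call the source adipocytes, markers of other cells of a whole pad were present too. Fibroblast markers (6 genes) summed to 3401 to 5190 CPM in A2B1 libraries and 5043 to 5345 CPM in controls, endothelial markers (5 genes) to 634 to 808 CPM in A2B1 libraries and 756 to 1118 CPM in controls, and macrophage markers (6 genes) to 157 to 386 CPM in A2B1 libraries and 338 to 478 CPM in controls. None of them passed in edgeR, but Dpt, Dcn, Lum, Pecam1, Cdh5 and Cd163 were below all controls in each A2B1 library (15.5% of all genes). Of these, DESeq2 called Dpt (edgeR log2 fold change -0.43, DESeq2 adjusted p = 1.08e-07), Dcn (-0.48, DESeq2 adjusted p = 0.00248) and Cd163 (-0.91, DESeq2 adjusted p = 0.0096). The other markers of these cell types overlapped between groups, and some hardly differed, such as Pdgfra (-0.04), Col1a1 (-0.08) and Kdr (0.06). Of the overlapping ones DESeq2 called Vwf as lower (-0.84, DESeq2 adjusted p = 0.0472). For Pdgfra, Col1a1 and Col3a1, A2B1 library 2 was above every control. The part of these stromal cells in the values of the 34 genes was not tested.

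Markers of hepatocytes, which are rich in beta-oxidation enzymes, set A2B1 libraries 1 and 3 apart. Albumin, Alb, had 6238, 67.1 and 808 CPM in A2B1 libraries 1, 2 and 3, against 102, 86.8 and 153 CPM in the controls. Apoa1, Ttr and Serpina1a had the same order of A2B1 libraries, while Cyp2e1 had 2227, 1351 and 1380 CPM in A2B1 libraries and 683, 1203 and 958 CPM in controls. The 5 markers summed to 10600, 1439 and 2457 CPM in A2B1 libraries, against 809, 1313 and 1151 CPM in controls, with none at 0. None passed the edgeR threshold (smallest adjusted p 0.163), while DESeq2 called all 5 as higher (adjusted p 0.00475 to 0.0304), as it did 7.4% of all genes. Cyp2e1 made up most of the summed level in every library but A2B1 library 1, so elsewhere the sum mainly follows Cyp2e1. For Alb, Ttr and Serpina1a, A2B1 library 2 was below every control and A2B1 libraries 1 and 3 above. For Apoa1, A2B1 library 2 was within the control range. Skeletal muscle markers (9 genes) summed to 3.68 to 14.1 CPM in A2B1 libraries and to 19.8 to 162 CPM in controls, highest in control 3, and lymphocyte markers (6 genes) to 3.71 to 6.15 CPM in A2B1 libraries and 4.22 to 222 CPM in controls, highest in control 1. Markers of brown and beige fat (7 genes) summed to 141 to 237 CPM in A2B1 libraries and 40.2 to 66.8 CPM in controls, and 2 of the 7, Cidea and Cox8b, rose. Ucp1, Cox7a1 and Ppargc1a were above all controls in each A2B1 library without passing, while Dio2 was lower (log2 fold change -0.54) with overlap. Elovl3 had the order of Alb, at 60.5, 0.340 and 5.80 CPM in A2B1 libraries and 3.84, 0.954 and 0.454 CPM in controls, and it adds to the sum of A2B1 library 1. In RNA from a whole pad, a change in the number of cells of a type and a change in RNA per cell cannot be told apart. Results are therefore given for all 6 libraries, without A2B1 library 1, and for A2B1 library 2 alone.

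**Figure D1:**
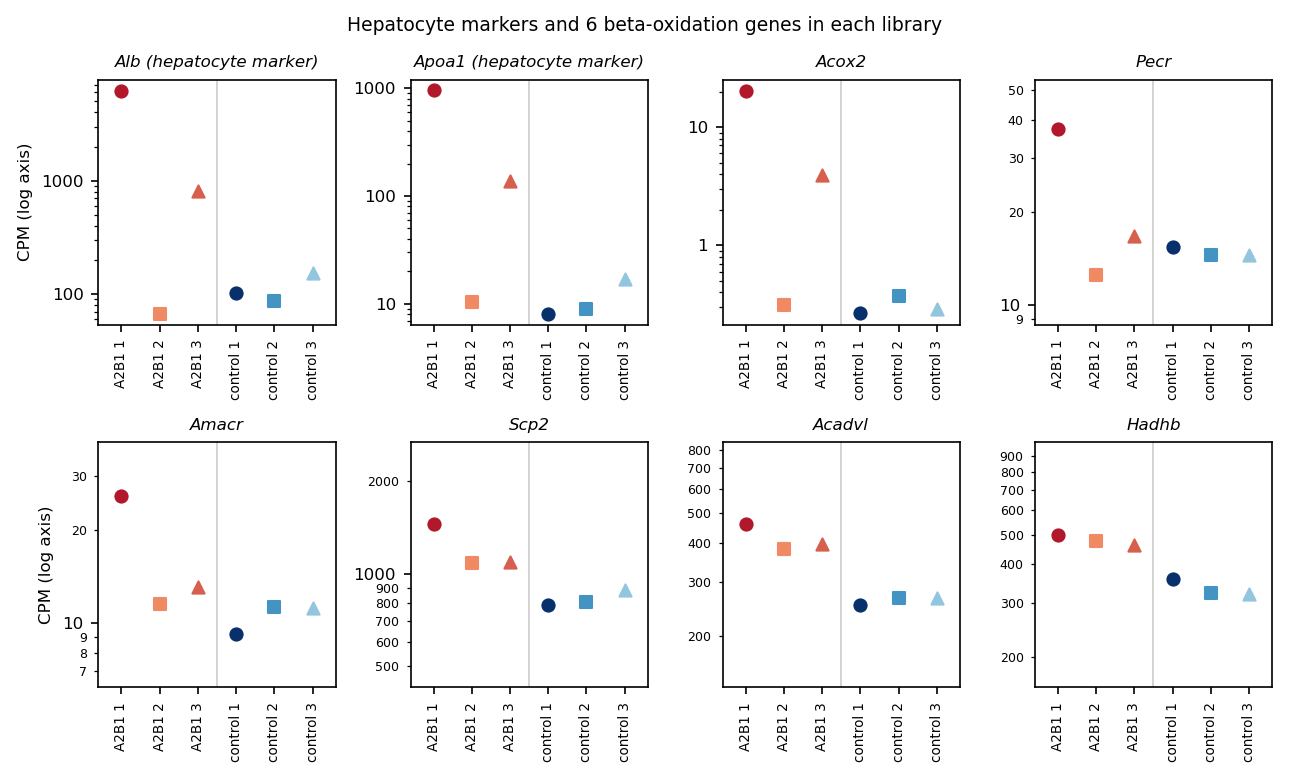
Level in CPM (log axis) of the hepatocyte markers Alb and Apoa1 and of 6 beta-oxidation genes; each point is 1 library, A2B1 left of control. All 6 beta-oxidation genes are highest in A2B1 library 1, as Alb is. Scp2, Acadvl, Hadhb and, by a narrow gap, Amacr lie above all controls in each A2B1 library, whereas Acox2 and Pecr do not.

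Per kilobase of exon, the most abundant transcript among the 34 in controls was that of Acadl, the long-chain acyl-CoA dehydrogenase, at 292 ± 16.3 CPM per kb in A2B1 and 238 ± 26.1 CPM per kb in control libraries (SD, n = 3 each). The level of Scp2, sterol carrier protein 2 and its thiolase form, was 347 ± 59.7 CPM per kb in A2B1 and 238 ± 14.01 CPM per kb in control libraries (SD, n = 3 each), so these top 2 did not differ beyond their spread in controls. Etfa, a subunit of electron transfer flavoprotein, followed at 249 ± 6.19 CPM per kb in A2B1 and 204 ± 14.7 CPM per kb in control libraries. The peroxisomal importer Abcd2 ranked 5 and Hsd17b4, the D-bifunctional protein, 7 in controls, at 155 ± 14.7 and 141 ± 9.996 CPM per kb (SD, n = 3). At the low end stood Acox2, the branched-chain acyl-CoA oxidase, with 0.0830 ± 0.0150 CPM per kb in controls, and Acot1 with 0.211 ± 0.0647 CPM per kb (SD, n = 3). Of the 10 most abundant genes per kb in controls, 3 were peroxisomal and 7 mitochondrial. Length here is that of all annotated exons of a gene merged over its transcripts, for example 8286 bases for Echs1 and 744 for Acot13. It can exceed the length of the transcript that is expressed, so these ranks depend on the annotation.

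**Figure D2:**
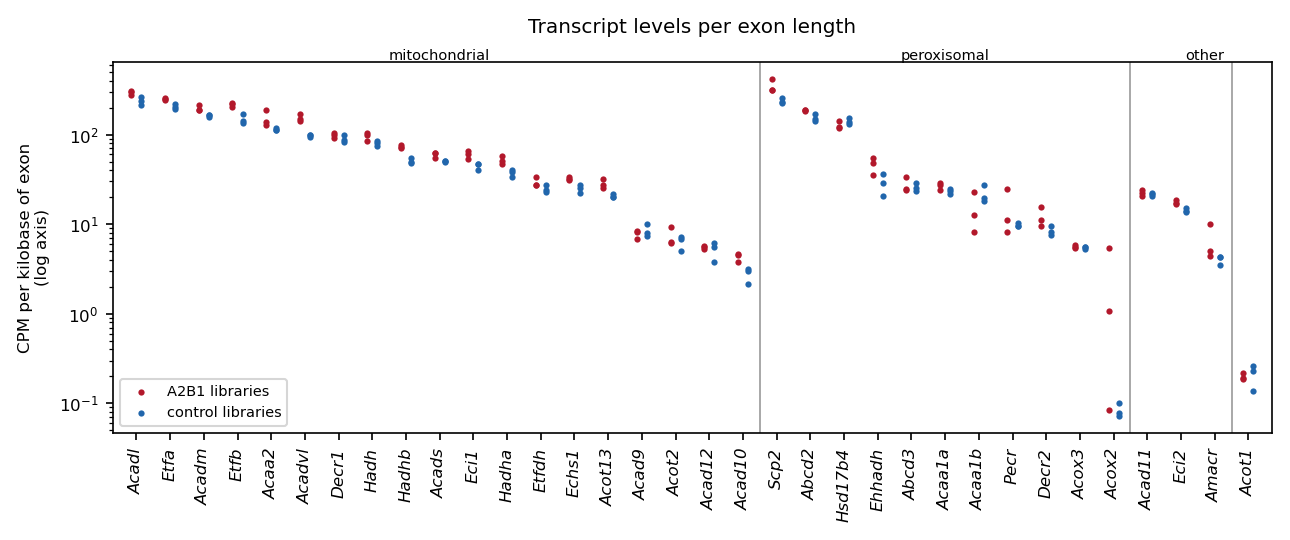
CPM per kilobase of exon (log axis) of the 34 genes, ordered within each compartment by the control mean; red points are the A2B1 libraries and blue points the control libraries. The A2B1 points of Acox2 spread from 0.314 to 20.2 CPM before division by length, more than for the other 33 genes.

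The central comparison asked which beta-oxidation genes differ between pads given Hnrnpa2b1 and pads given the control virus, and whether mitochondrial and peroxisomal genes did so alike. Of the 34 genes, 2 rose at an adjusted p under 0.05 in edgeR's quasi-likelihood test, 0 fell and 32 did not pass; among all 19146 genes tested, 1.82% passed in either direction, 0.496% higher and 1.33% lower. Both that rose, Acadvl and Hadhb, are mitochondrial. The log2 fold change was positive in 30 of 34, as in 50.3% of all genes, with a median of 0.29 against 0.00 over all genes. The A2B1 libraries lay above all controls in 19 genes and below all in 0, where 15.1% of all genes were higher and 15.5% lower in this sense, 30.6% together. An unadjusted p under 0.05 was reached by 20 genes, all higher, against 11.5% of all genes higher and 12.7% lower. DESeq2 called 14 of the 34, all higher (of the genes it adjusted, 7.4% were called higher and 8.82% lower), and limma-voom 3, all higher (2.69% of all genes in either direction).

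The calls rest on all 6 libraries together. In the 6 fits that leave out 1 library each, 0 of the 34 passed in edgeR, and the calls over all genes numbered 10 to 57, against 349 with all libraries. In those fits the adjusted p was 0.0808 to 0.13 for Acadvl and 0.077 to 0.169 for Hadhb. Their sizes moved little, between 0.60 and 0.72 for Acadvl and between 0.49 and 0.58 for Hadhb (log2 fold change).

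**Figure D3:**
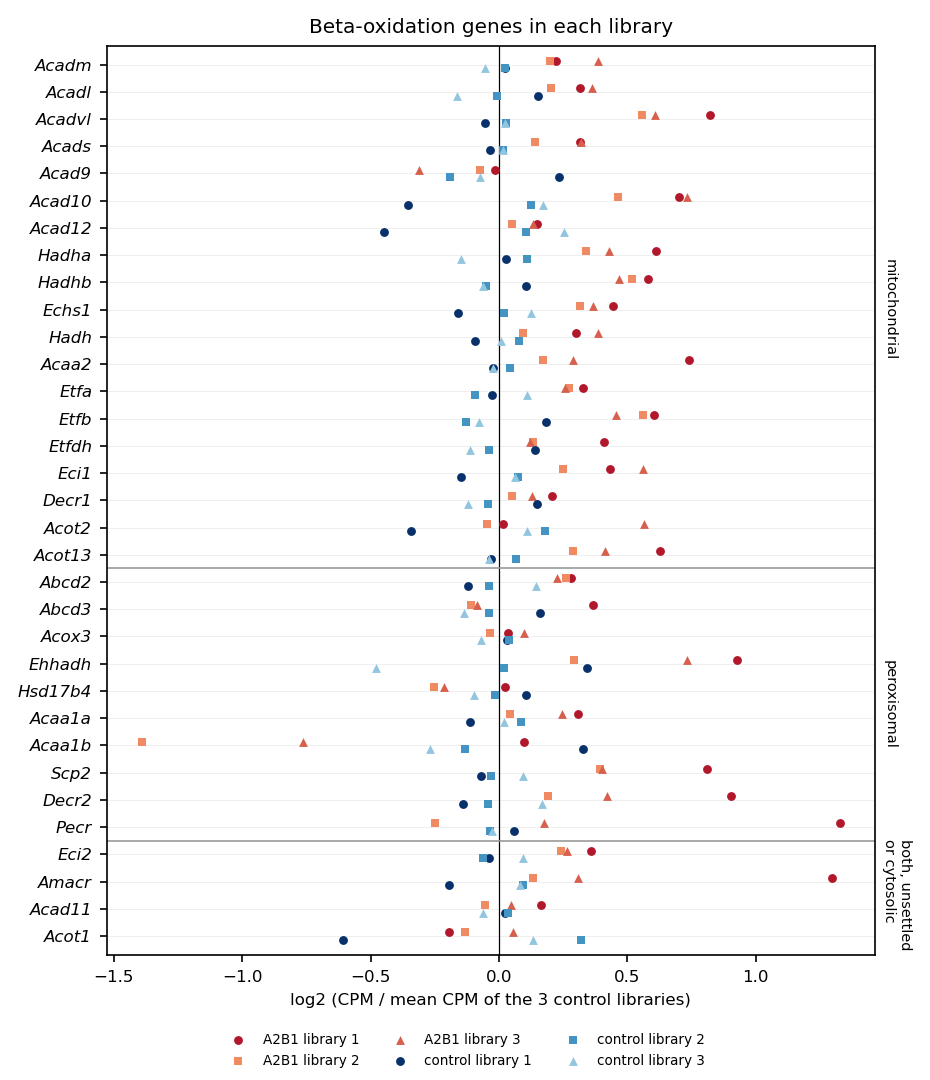
For 33 of the 34 genes, log2 of the CPM in each library over the mean of the 3 controls; warm colours are A2B1 and blue colours control libraries. Acox2, whose A2B1 libraries spread beyond this axis, is left out. Most mitochondrial genes have all 3 A2B1 points right of the controls, while A2B1 library 2 lies above all controls in 3 of the 11 peroxisomal genes.

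Among the acyl-CoA dehydrogenases, which start each mitochondrial round, Acadvl rose most clearly. Acadvl, the very-long-chain enzyme of the inner membrane (ENSMUSG00000018574, mm10 chromosome 11, 70010183 to 70015411, minus strand), had 461, 384 and 398 CPM in A2B1 libraries, against 251.3, 265.5 and 265.4 CPM in controls. Every A2B1 library was above every control. Acadvl rose 1.59-fold (95% interval 1.35 to 1.87; log2 fold change 0.67, SE 0.10, edgeR adjusted p = 0.0374), and on the log2 scale the value was 0.60 without A2B1 library 1 and 0.58 for A2B1 library 2 alone. The exons of Acadvl overlap those of Dvl2 on the other strand over 42.9% of their length and the counting strand is unknown here, but Dvl2 held only 618 to 972 counts in any library, against 18936 or more for Acadvl.

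The other chain-length enzymes were also higher in all A2B1 libraries without passing the test. Acadm, the medium-chain enzyme, had 743, 731 and 832 CPM in A2B1 libraries and 649, 649 and 615 CPM in controls (log2 fold change 0.27, edgeR adjusted p = 0.158). Acadl had 593, 550 and 614 CPM in A2B1 libraries and 531, 475 and 426 CPM in controls (0.30, adjusted p = 0.175). Acads, the short-chain enzyme, had 141, 125 and 141 CPM in A2B1 libraries and 111, 115 and 115 CPM in controls (0.26, adjusted p = 0.141). These 3 showed no overlap between groups, with gaps that were small beside that of Acadvl.

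The less studied family members Acad10, Acad12 and Acad9 did not pass. Acad10 had 27.4, 23.2 and 28.0 CPM in A2B1 libraries, against 13.2, 18.4 and 18.97 CPM in controls, a log2 fold change of 0.64 (SE 0.16, edgeR adjusted p = 0.102) with no overlap. Its neighbour Acad12, on the same strand of chromosome 5, had 37.0, 34.5 and 36.6 CPM in A2B1 libraries and 24.5, 35.9 and 39.8 CPM in controls (0.11, adjusted p = 0.738), with overlapping groups. The Acad10 to Acad12 ratio was 0.740, 0.673 and 0.765 in A2B1 libraries and 0.539, 0.512 and 0.477 in controls. The 2 transcripts share sequence: 16.8% of the 50-base windows of Acad10 also occur in Acad12, so reads could be split between them and both counts are uncertain. Acad9, which also helps to assemble respiratory complex I, had 69.0, 66.2 and 56.1 CPM in A2B1 libraries and 81.8, 60.9 and 66.1 CPM in controls, the only mitochondrial gene with a negative value (-0.13, adjusted p = 0.605; 0.01 without control library 1).

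The trifunctional protein of the inner membrane carries out the last 3 steps for long chains, and its subunits are encoded head to head. Hadhb, the thiolase subunit (ENSMUSG00000059447, chromosome 5, 30155248 to 30184593, plus strand), had 499, 477 and 462 CPM in A2B1 libraries, against 359, 322 and 320 CPM in controls. It rose by a log2 fold change of 0.52 (SE 0.09, edgeR adjusted p = 0.0453), a ratio of 1.44 (95% interval 1.24 to 1.66). The value was 0.51 without A2B1 library 1 and 0.54 for A2B1 library 2 alone, and the adjusted p was 0.0661 with library totals in place of TMM factors. Hadha, the hydratase and dehydrogenase subunit (ENSMUSG00000025745, 30118304 to 30155162, minus strand), had 498, 412 and 438 CPM in A2B1 libraries, against 332, 352 and 295 CPM in controls, also without overlap (0.46, SE 0.11, adjusted p = 0.0914). The Hadha to Hadhb ratio was 0.999, 0.864 and 0.950 in A2B1 libraries and 0.925, 1.09 and 0.921 in controls, with overlapping groups. The gene model Gm13910 holds 18.1% of the 50-base windows of Hadhb. It had 6069, 6388 and 5861 counts in A2B1 libraries and 4375, 5007 and 4221 in controls, so part of the reads of Hadhb may have been assigned there.

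The stretch between the annotated ends of Hadha and Hadhb is 85 bases long, and it is printed because both genes of the pair start from it. Sequences are from RefSeq (GRCm38.p6, the assembly of mm10), 5′ to 3′, with capitals marking GGGCGG (the GC box) or AGGTCA (a nuclear receptor half-site) on either strand. Windows from 250 bases before to 50 after the gene start were matched for 27 of the 34 genes. The half-site occurred in 4 of the 27 (Acadm, Acadvl, Echs1 and Scp2), a share of 14.8%, against 16.3% of all 32851 such windows. The GC box occurred in 18 of the 27, or 66.7%, against 35.7% of all windows: in 9 of 15 mitochondrial and 6 of 9 peroxisomal genes. The longer TCAAGGTCA, and 2 copies of the half-site with 1 base of any kind between them, occurred in 0 of the 27, and in 0.423% and 0.0396% of all windows. All 4 motifs were searched on both strands, and each longer motif holds the half-site. The 250 bases before the start are shown for 3 of the 4 genes with a half-site, among them Acadvl, which rose.
Hadha-Hadhb stretch, chr5:30155163-30155247, plus strand: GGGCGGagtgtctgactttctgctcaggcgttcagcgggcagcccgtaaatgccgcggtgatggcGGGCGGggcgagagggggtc
Acadvl, chr11:70015429-70015678, minus strand: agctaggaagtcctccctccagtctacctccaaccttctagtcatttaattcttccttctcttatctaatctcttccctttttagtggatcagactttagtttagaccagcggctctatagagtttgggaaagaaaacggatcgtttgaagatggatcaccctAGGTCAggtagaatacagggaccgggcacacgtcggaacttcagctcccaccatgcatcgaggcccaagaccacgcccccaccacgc
Acadm, chr3:153944644-153944893, minus strand: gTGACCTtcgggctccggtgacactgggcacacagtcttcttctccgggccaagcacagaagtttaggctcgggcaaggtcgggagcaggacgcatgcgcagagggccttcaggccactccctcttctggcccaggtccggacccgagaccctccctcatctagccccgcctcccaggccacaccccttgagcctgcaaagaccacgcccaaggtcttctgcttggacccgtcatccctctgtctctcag
Scp2, chr4:108118548-108118797, minus strand: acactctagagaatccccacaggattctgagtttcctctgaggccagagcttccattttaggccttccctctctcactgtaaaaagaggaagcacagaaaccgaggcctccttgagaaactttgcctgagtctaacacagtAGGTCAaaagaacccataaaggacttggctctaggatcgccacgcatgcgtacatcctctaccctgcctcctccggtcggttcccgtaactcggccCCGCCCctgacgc
The half-site begins 87 bases before the start in Acadvl, 109 in Scp2 and, on the opposite strand, 249 in Acadm. The start used for Scp2 lies inside the longer gene of the GENCODE M21 annotation.

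The soluble matrix enzymes of shorter chains were higher in all A2B1 libraries. Echs1, the short-chain enoyl-CoA hydratase, had 281, 257 and 266 CPM in A2B1 libraries and 185, 209 and 225 CPM in controls (log2 fold change 0.38, SE 0.10, edgeR adjusted p = 0.106). Hadh, the 3-hydroxyacyl-CoA dehydrogenase, had 493, 427 and 523 CPM in A2B1 libraries and 375, 422 and 402 CPM in controls (0.27, adjusted p = 0.193). Acaa2, the mitochondrial thiolase, had 288, 194 and 211 CPM in A2B1 libraries and 170, 178 and 170 CPM in controls (0.42, adjusted p = 0.175). Acaa2 was highest in A2B1 library 1, which held the most hepatocyte marker RNA, and its value was 0.25 without that library, whereas those of Echs1 and Hadh were 0.36 and 0.27. Whether hepatocyte RNA contributed to Acaa2 was not tested.

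None of the 3 genes for the electron acceptors of the dehydrogenases passed in edgeR, and Etfb had the smallest p. Etfb, the beta subunit of electron transfer flavoprotein, had 262, 254 and 236 CPM in A2B1 libraries, against 196, 158 and 163 CPM in controls, without overlap. Its log2 fold change was 0.54 (SE 0.11); it missed the threshold in edgeR (adjusted p = 0.0655) and passed in limma-voom (0.0384) and DESeq2 (0.000702), with 0.53 without A2B1 library 1 and 0.58 for A2B1 library 2 alone. Etfb shares 53.0% of its exon length with the gene model Gm45233 on the same strand, which held 7 to 134 counts in any library. Etfa, the alpha subunit, had 470, 453 and 449 CPM in A2B1 libraries and 369, 352 and 405 CPM in controls (0.29, adjusted p = 0.136), again without overlap. Etfdh, which hands the electrons to ubiquinone, had 249, 205 and 203 CPM in A2B1 libraries and 206, 182 and 173 CPM in controls (0.23, adjusted p = 0.286), with overlap. The Etfa to Etfb ratio was 1.80, 1.79 and 1.90 in A2B1 libraries and 1.88, 2.23 and 2.48 in controls.

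Auxiliary enzymes for unsaturated fatty acids and the thioesterases, which release free fatty acids from CoA, were mixed. Eci1, a mitochondrial enoyl-CoA isomerase, had 128, 112 and 139 CPM in A2B1 libraries and 85.2, 99.6 and 98.6 CPM in controls, without overlap (log2 fold change 0.42, edgeR adjusted p = 0.107). Decr1, the 2,4-dienoyl-CoA reductase of mitochondria, had overlapping groups at 359 to 400 CPM in A2B1 libraries and 319 to 384 CPM in controls (0.13, adjusted p = 0.462). Acot13 had 23.7, 18.7 and 20.4 CPM in A2B1 libraries and 14.98, 16.0 and 14.9 CPM in controls, without overlap (0.45, adjusted p = 0.101). Acot2, the mitochondrial thioesterase, had 13.96, 13.4 and 20.5 CPM in A2B1 libraries and 10.9, 15.7 and 14.9 CPM in controls, and its cytosolic neighbour Acot1 had 0.724, 0.755 and 0.860 CPM in A2B1 libraries and 0.544, 1.03 and 0.908 CPM in controls. Neither passed (0.21, adjusted p = 0.596, and -0.09, adjusted p = 0.888), both with overlap. Of the 50-base windows of Acot2, 24.6% occur in Acot1, so their split is uncertain.

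In the peroxisome, none of the 11 genes passed in edgeR. Of the 11, 5 reached an unadjusted p under 0.05, each with a higher level (11.5% of all genes), while DESeq2 called 2 as higher (7.4% of all genes): Scp2, and Acox2, which was within the control range in A2B1 library 2. The importers of the peroxisomal membrane are Abcd2 and Abcd3. Abcd2, which takes up very-long-chain acyl-CoA, had 1119, 1103 and 1078 CPM in A2B1 libraries, against 848, 897 and 1018 CPM in controls, without overlap (log2 fold change 0.26, SE 0.10, edgeR adjusted p = 0.186). It was 0.26 without A2B1 library 1 and 0.28 for A2B1 library 2 alone. Abcd3 had 221, 159 and 162 CPM in A2B1 libraries and 192, 167 and 156 CPM in controls (0.07, adjusted p = 0.807), with overlap; its value was -0.08 without A2B1 library 1.

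The oxidases of branched-chain substrates held the widest spread. Acox2 (ENSMUSG00000021751, chromosome 14, 8225511 to 8259353, minus strand) had 20.2, 0.314 and 3.95 CPM in A2B1 libraries 1, 2 and 3, against 0.265, 0.370 and 0.287 CPM in controls. In counts these were 1397, 25 and 294 in A2B1 libraries and 20, 33 and 24 in controls. A2B1 library 2 lay within the control range, and the other 2 lay far above it, in the same order as Alb. The fitted log2 fold change of 4.72 (SE 1.45, edgeR adjusted p = 0.151; DESeq2 0.00499) was 2.80 without A2B1 library 1 and 0.05 for A2B1 library 2 alone. Acox3 differed little, at 61.6 to 67.5 CPM in A2B1 libraries and 60.1 to 64.8 CPM in controls (0.03, adjusted p = 0.809), with a 95% interval of the ratio from 0.907 to 1.16.

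The bifunctional proteins, which hydrate and dehydrogenate in the peroxisome, had values of opposite sign. Ehhadh, the L-bifunctional protein, had 162, 105 and 142 CPM in A2B1 libraries and 108, 86.4 and 61.1 CPM in controls (log2 fold change 0.68, SE 0.25, edgeR adjusted p = 0.177). Hsd17b4, the D-bifunctional protein, had 488, 402 and 413 CPM in A2B1 libraries and 515, 475 and 448 CPM in controls (-0.14, SE 0.11, adjusted p = 0.464). Each overlapped between groups. The Ehhadh to Hsd17b4 ratio within a library did not overlap, at 0.333, 0.260 and 0.343 in A2B1 libraries and 0.210, 0.182 and 0.137 in controls. Hsd17b4 stayed the more abundant of the pair per kb, at 128 ± 13.7 CPM per kb in A2B1 and 141 ± 9.996 CPM per kb in control libraries, against 45.7 ± 9.81 and 28.6 ± 7.89 CPM per kb for Ehhadh (SD, n = 3 each).

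None of the 3 peroxisomal thiolases passed in edgeR. Scp2 (ENSMUSG00000028603, chromosome 4, 108043839 to 108144998, minus strand) had 1448, 1086 and 1091 CPM in A2B1 libraries, against 788, 810 and 881 CPM in controls, without overlap. Its log2 fold change of 0.55 (SE 0.14, edgeR adjusted p = 0.101; DESeq2 0.00616) was 0.41 without A2B1 library 1 and 0.42 for A2B1 library 2 alone. The pseudogene Scp2-ps2 holds 29.7% of the 50-base windows of Scp2 and had 5730 to 7056 counts in A2B1 libraries and 4732 to 6102 in controls. Acaa1a, a further peroxisomal thiolase, had 127, 106 and 122 CPM in A2B1 libraries and 95.2, 109 and 104 CPM in controls (0.20, adjusted p = 0.267). Its paralog Acaa1b had 45.2, 16.1 and 24.9 CPM in A2B1 libraries and 53.1, 38.6 and 35.1 CPM in controls (-0.56, SE 0.39, adjusted p = 0.427). In Acaa1b, A2B1 libraries 2 and 3 lay below every control and A2B1 library 1 among them; without that library the value was -1.03 (adjusted p = 0.176). The Acaa1b to Acaa1a ratio was 0.355, 0.152 and 0.204 in A2B1 libraries and 0.558, 0.354 and 0.337 in controls. Since 30.5% of the 50-base windows of Acaa1b occur in Acaa1a, both counts are uncertain.

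Of the auxiliary reductases of the peroxisome and the genes of mixed location, none of the 5 passed in edgeR. All 5 had smaller values without A2B1 library 1, by most in Pecr, Amacr and Decr2. Pecr, the trans-2-enoyl-CoA reductase, had 37.3, 12.5 and 16.8 CPM in A2B1 libraries and 15.5, 14.5 and 14.6 CPM in controls, with a log2 fold change of 0.58 (edgeR adjusted p = 0.419) that was 0.00 without A2B1 library 1 and -0.23 for A2B1 library 2 alone. Amacr, the alpha-methylacyl-CoA racemase, had 26.0, 11.6 and 13.1 CPM in A2B1 libraries and 9.24, 11.3 and 11.2 CPM in controls (0.67, adjusted p = 0.256; 0.24 without A2B1 library 1). Decr2 had 41.7, 25.4 and 29.9 CPM in A2B1 libraries and 20.2, 21.6 and 25.0 CPM in controls (0.54, adjusted p = 0.175; 0.33 without A2B1 library 1). Amacr and Decr2 had no overlap between groups, though A2B1 library 2 was only just above the highest control, and Pecr overlapped. In all 5 genes, Eci2 and Acad11 included, A2B1 library 1, the one with the most Alb, was the highest. Among the A2B1 libraries, library 3 came next and library 2 was lowest. The part of hepatocyte RNA in the values of these genes and of Acox2 was not tested. Eci2, an isomerase of both organelles, had 102, 93.7 and 95.4 CPM in A2B1 libraries and 77.1, 76.0 and 84.7 CPM in controls, without overlap and nearly the same without A2B1 library 1 (0.29, adjusted p = 0.112; 0.27). Acad11 had 236, 203 and 217 CPM in A2B1 libraries and 214, 216 and 201 CPM in controls, with overlap (0.05, adjusted p = 0.735).

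**Figure D4:**
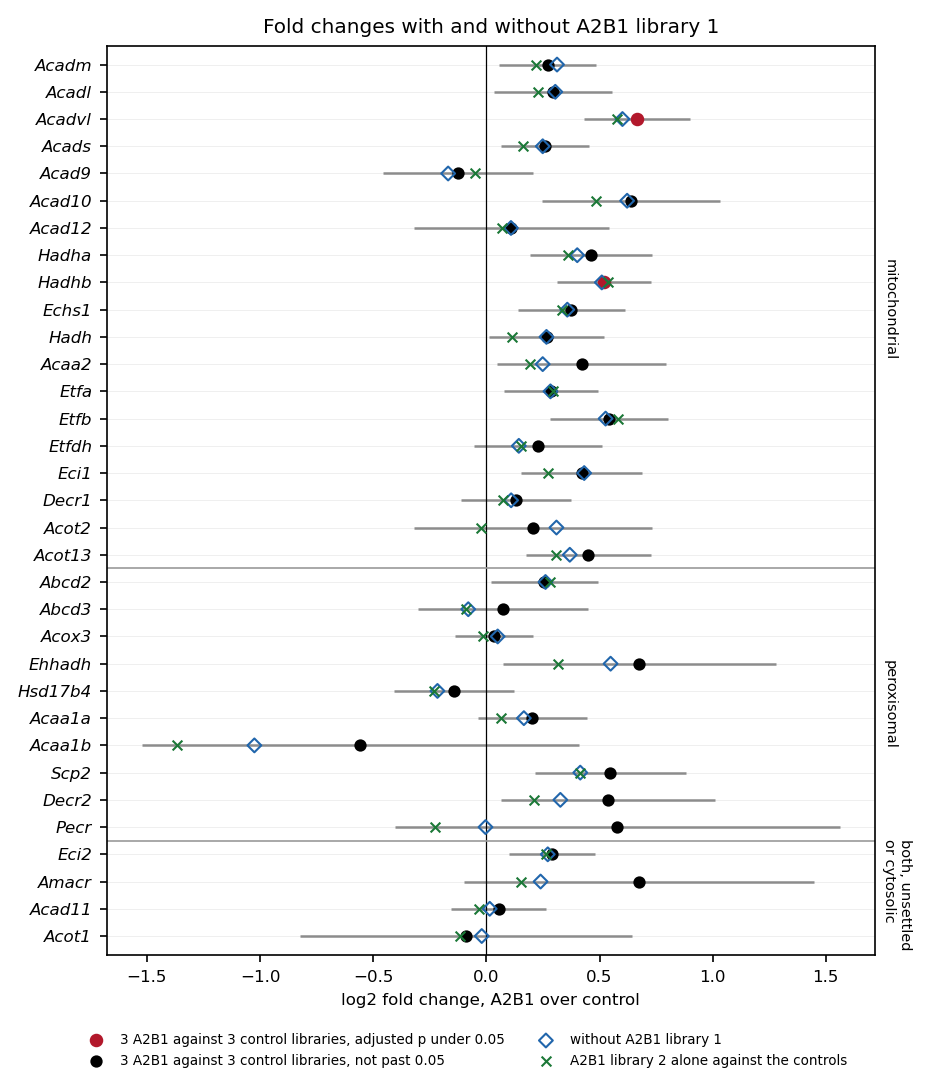
Log2 fold change, A2B1 over control, for 33 of the 34 genes (Acox2, at 4.72, is left out): filled circles with 95% intervals are the fit of all 6 libraries, red for the 2 genes past an adjusted p of 0.05; diamonds are without A2B1 library 1 and crosses are A2B1 library 2 alone. Diamonds and circles nearly coincide for most mitochondrial genes and part for Acaa1b, Pecr and Amacr.

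Set side by side, the mitochondrial genes were higher in a larger share than the peroxisomal ones. Of 19 mitochondrial genes, 18 had a positive log2 fold change, 14 had all A2B1 libraries above all controls, and the median was 0.30; over all genes 50.3% were positive and 15.1% higher without overlap. Of 11 peroxisomal genes, 9 were positive, 3 had no overlap, and the median was 0.26. Without A2B1 library 1 the medians were 0.31 for mitochondrial and 0.17 for peroxisomal genes, and for A2B1 library 2 alone 0.23 and 0.05. A2B1 library 2 exceeded the highest control in 14 of 19 mitochondrial and 3 of 11 peroxisomal genes, against 29.5% of all genes tested. A2B1 library 1 did so in 16 of 19 and 8 of 11 (32.7% of all genes), and A2B1 library 3 in 15 of 19 and 8 of 11 (34.6% of all genes). The order of the A2B1 libraries differed too: 9 of 11 peroxisomal and 7 of 19 mitochondrial genes were highest in library 1 and lowest in library 2, the order of Alb, as were 17.6% of all genes. These counts are a description, and the difference between the compartments was not tested.

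Summed over genes, the mitochondrial transcripts had 5675, 5096 and 5453 CPM in A2B1 libraries, against 4347, 4262 and 4144 CPM in controls, without overlap. The peroxisomal sum was 3775, 3077 and 3150 CPM in A2B1 libraries and 2699, 2684 and 2803 CPM in controls, also without overlap, but Scp2 and Abcd2 made up most of it. Without these 2 genes it was 1207, 888 and 981 CPM in A2B1 libraries and 1063, 977 and 904 CPM in controls, with overlap. The mitochondrial to peroxisomal ratio of the full sums overlapped, at 1.503, 1.66 and 1.73 in A2B1 libraries and 1.61, 1.59 and 1.48 in controls. Without Scp2 and Abcd2 the ratio was 4.70, 5.74 and 5.56 in A2B1 libraries and 4.09, 4.36 and 4.58 in controls. Whether the 2 groups overlap thus depends on these 2 abundant peroxisomal genes. Both were themselves higher in A2B1 libraries without overlap and were taken out of the peroxisomal sum only. Their removal by itself favours a higher ratio in A2B1 libraries, so no difference between compartments is read from it.

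Neighbouring steps of the pathway were read from 7 further lists. In the carnitine shuttle and acyl-CoA activation list, 2 of 15 tested genes rose, 1 fell and 12 did not pass. Over all genes, 0.496% rose and 1.33% fell in edgeR. Crat, carnitine acetyltransferase, had 378, 345 and 400 CPM in A2B1 libraries and 216, 232 and 232 CPM in controls, and rose by a log2 fold change of 0.72 (SE 0.09, edgeR adjusted p = 0.0253), or 0.73 without A2B1 library 1. Cpt1b, the muscle-type carnitine palmitoyltransferase, rose to 28.6, 25.7 and 27.2 CPM in A2B1 libraries, against 13.5, 11.7 and 7.27 CPM in controls (adjusted p = 0.0497), and Cpt1a, the liver-type form, fell to 85.1, 70.1 and 67.6 CPM in A2B1 libraries, against 158, 133 and 121 CPM in controls (adjusted p = 0.0402). The call of Cpt1b was lost with DESeq2 size factors (adjusted p = 0.05) and library totals (adjusted p = 0.0541). Among 17 peroxins, which assemble peroxisomes, 1 rose and 16 did not pass (median 0.14). Higher levels at an unadjusted p under 0.05 were found for 5 peroxins (11.5% of all genes) and lower levels for 2 (12.7% of all genes). By DESeq2, 2 passed with higher levels (7.4% of all genes) and 1 with lower levels (8.82% of all genes). The lower ones were Pex5l, with 0.536, 0.830 and 1.34 CPM in A2B1 libraries and 3.95, 2.69 and 3.02 CPM in controls (-1.83, edgeR adjusted p = 0.0688; DESeq2 0.00013), and Pex3, with 30.8, 36.3 and 33.4 CPM in A2B1 libraries and 45.8, 46.7 and 36.4 CPM in controls (-0.36, edgeR adjusted p = 0.163). The peroxin that rose was Pex11a, which takes part in peroxisome division: it had 85.6, 83.0 and 86.2 CPM in A2B1 libraries and 43.9, 52.2 and 44.8 CPM in controls (0.86, SE 0.09, adjusted p = 0.0236), and its value was 0.87 without A2B1 library 1 and 0.84 for A2B1 library 2 alone.

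Of 22 other peroxisomal matrix enzymes tested, 0 passed in edgeR, 11 in DESeq2, all higher (7.4% of all genes), and 1 in limma-voom, Hacl1 (adjusted p = 0.0469). At an unadjusted p under 0.05, 12 were higher (11.5% of all genes) and 1 lower (12.7% of all genes), and the median log2 fold change was 0.42. Among the 11 called by DESeq2, Hao1, Slc27a2, Baat, Pipox and Cat had the order of Alb over the A2B1 libraries. Hao1, a hydroxyacid oxidase, stood at 45.9, 0.478 and 7.30 CPM in A2B1 libraries and 0.557, 0.438 and 0.669 CPM in controls. Cat, catalase, differed far less, with 1385, 1163 and 1229 CPM in A2B1 libraries and 1031, 1059 and 999 CPM in controls. The part of hepatocyte RNA in these genes was not tested. The smallest p-values belonged to Hacl1, a lyase of alpha-oxidation, with 85.3, 65.1 and 64.9 CPM in A2B1 libraries and 48.5, 42.7 and 37.5 CPM in controls (adjusted p = 0.0655), and Ephx2, the soluble epoxide hydrolase, with 791, 618 and 837 CPM in A2B1 libraries and 405, 504 and 375 CPM in controls (adjusted p = 0.0667). Among 16 regulators listed around PPAR and PGC-1, 0 passed in edgeR. This list pools activators with the corepressors Ncor1 (log2 fold change 0.24) and Nrip1 (0.52), both with overlap. Higher levels with an unadjusted p under 0.05 were found for 4 (11.5% of all genes) and lower ones for 0 (12.7% of all genes). In DESeq2, 3 passed, all higher (7.4% of all genes), and the median log2 fold change was 0.35. Ppargc1a had 26.2, 34.2 and 30.1 CPM in A2B1 libraries and 12.1, 20.4 and 16.2 CPM in controls (adjusted p = 0.0827), and the nuclear receptor Esrrg 6.37, 6.65 and 8.24 CPM in A2B1 libraries and 4.78, 2.76 and 3.51 CPM in controls (adjusted p = 0.102).

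Of 13 PPAR target genes outside beta-oxidation, 2 rose (0.496% of all genes), the lipid droplet genes Cidea and Plin5, and 11 did not pass (median 0.75). Cidea had 91.7, 59.3 and 73.9 CPM in A2B1 libraries and 21.3, 16.5 and 12.6 CPM in controls (edgeR adjusted p = 0.0248), and Plin5 had 29.9, 26.1 and 49.9 CPM in A2B1 libraries and 8.89, 13.4 and 10.2 CPM in controls (adjusted p = 0.0497). The call of Plin5 held in 3 of 7 other settings with all libraries, and was lost with library totals (adjusted p = 0.0594), upper-quartile factors (0.0517), no filter (0.053) and limma-voom (0.0507). Among 7 genes of ketone body and acetyl-CoA metabolism and 4 acyl-CoA dehydrogenases of amino acid breakdown, 0 passed in edgeR. At an unadjusted p under 0.05 there were 3 and 1, all higher (11.5% of all genes). DESeq2 called 1 in each list, both higher (7.4% of all genes). Among them, the log2 fold change was 0.33 for Acat1 (edgeR adjusted p = 0.171), 0.79 for Gcdh (adjusted p = 0.171) and 0.16 for Acad8 (adjusted p = 0.414). Gcdh, which breaks down glutaryl-CoA, had 108, 57.8 and 61.5 CPM in A2B1 libraries and 37.9, 39.3 and 53.9 CPM in controls, and its value was 0.47 without A2B1 library 1.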

How the data were processed

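Groups follow the treatment in the labels. The authors deposited 1 table of raw read counts per gene, not normalized, with 1 column per library, per the file headers; Bowtie and mm10 are named in the submitters' processing notes, while counting program, annotation and strand were not given in the sources used here. No column of another sample was present (0). Total counts of 72961324 to 86663359 set the precision, and the closest pair of libraries differed by 69.5 times the counting noise, so none was a copy. Counts were analysed in R 4.3.3 with edgeR 4.0.16: filterByExpr (at least 10 counts, 15 in total) kept 19146 of 31438 genes with any count, followed by TMM scaling, a robust quasi-likelihood fit with group as the only term, a two-sided F test and Benjamini-Hochberg adjustment over all genes, called under 0.05. The standard error is the log2 fold change divided by the square root of F. CPM use TMM-scaled library sizes. DESeq2 1.42.0, limma 3.58.1 (voom with quality weights) and other scalings and filters were alternatives. On simulated counts with 50 genes changed at each size, the edgeR fit recovered 0 at 1.5-fold, 12 at 2-fold, 39 at 4-fold and 46 at 8-fold. It made 101 calls there, of which 4 were false. A gene that did not pass may therefore still have changed by 1.5-fold or 2-fold. The simulation changed only 50 genes at each size, whereas in the data 24.2% of all genes had an unadjusted edgeR p under 0.05. Recovery in the data can therefore differ: Acadvl at 1.59-fold and Hadhb at 1.44-fold did pass. Coordinates, exon lengths, exon overlaps and shared 50-base transcript windows come from GENCODE M21 (mm10). The members and lists were chosen with earlier results of these data known. Named were all members, with values in every library for those past the threshold, the 4 smallest p-values of each compartment and pairs of paralogs, and, of each pathway list, up to 4 genes past the threshold or else the 2 with the smallest p; values of further members, marker genes and pathway genes were added after they were seen. One gene that this rule names in a pathway list is not reported here.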

Additional observations from a re-analysis of the deposited data

How the results depend on the processing

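The calls moved more than the sizes. Of the 34 genes, 1 was called with library totals in place of TMM, 14 with DESeq2 and 4 at an adjusted p under 0.1, and 2 or 3 with the remaining scalings, filters and limma-voom; over all genes DESeq2 called 2919 and the looser threshold 1270, against 349. Leaving out 1 library gave 10 to 57 calls over all genes and 0 to 0 among the 34. Without library 1 of both groups there were 7 calls over all genes and 0 among the 34, and the peroxisomal median was 0.0957. A further 3 sets of libraries were chosen after seeing the data: A2B1 library 2 alone, whose fit assumes that it varies like the controls, gave 0 calls and a peroxisomal median of 0.0515; leaving out controls 1 and 3 gave 1 call over all genes and 0 among the 34; leaving out A2B1 library 1 and control 3 gave 0 and 0. The cause of these shifts in calls was not tested, but each of these fits has fewer samples.

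Over 49 named genes and 831 comparisons with an alternative, the direction turned in 22. The log2 fold change reached after the turn was at most 0.2282 in size. The shift from the main fit could be larger, as in Pecr, from 0.5781 to -0.2282 for A2B1 library 2 alone. Acox3 was -0.0077 with library totals. Over the fits without 1 library, the range was -0.0013 to 0.0703 for Acox3, -0.08 to 0.1652 for Abcd3, -0.0039 to 0.8682 for Pecr, -0.0044 to 0.3188 for Acot2, -0.209 to 0.0107 for Acad9, -0.0652 to 0.2559 for Acad12 and -0.3107 to 0.1058 for Acot1. Without library 1 of both groups, Acad12 was -0.0886, Abcd3 -0.0108 and Acad8 -0.0012. For A2B1 library 2 alone, Acot2 was -0.0241, Abcd3 -0.0888, Acox3 -0.0135, Pecr -0.2282 and Acad11 -0.0335. Without controls 1 and 3, Acad9 was 0.064 and Acox3 -0.0054. Without A2B1 library 1 and control 3, Abcd3 was -0.1407, Pecr -0.0146, Acad11 -0.0133 and Acot1 0.0526. No paired analysis was possible because the labels of the groups share no replicate numbers. Low counts limit Acot1 and, in controls, Acox2.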
